A study of Mus musculus with 18 samples.

Results

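Broad promoter peaks are stretches of open chromatin of 4000 bp or more that the study classed as promoter, meaning that they reach into the window from 1000 bp before to 100 bp after a transcription start. They were chosen by width alone, as the end minus the start of the peak. Of 36670 promoter peaks, 2968 met this rule, among 194284 peaks of the whole series. The contrast class was the 27369 narrow promoter peaks under 2000 bp, and 6333 promoter peaks had a width in between. All 2968 broad peaks and 27365 of the narrow ones passed the filter on low counts. Since a union peak is as wide as the calls of all libraries together, width is not independent of how strongly a region was open, and levels are therefore also given per kb.

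The study profiled open chromatin by ATAC-seq, a method that cuts and tags exposed DNA with a transposase, in bone marrow-derived macrophages (BMDMs) from 3 Il10-/- mice of the C57BL/6J strain, males aged 12 weeks. Marrow was cultured for 6 days in medium with L929 cell supernatant, the source of macrophage growth factor. Every group therefore lacked endogenous IL-10, and there was no wild-type group. The 6 groups of 3 libraries each were unstimulated cells, cells given 500 nM (+)-JQ1, cells given 10 ng/mL IL-10, cells stimulated with 50 ng/mL LPS, and cells given the same dose of (+)-JQ1 or of IL-10 together with LPS. Treatment began 12 h before LPS or its carrier PBS, which was left on for 4 h, so that all cells were collected at 16 h. Libraries of the same number were treated as matched, since the series calls its samples biologically matched, although no label ties a number to a mouse. Because the samples are bulk, a change in the share of cells in which a site is open and a change in openness per cell cannot be told apart.

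LPS, a component of bacterial cell walls, is sensed by Toll-like receptor 4 and activates NF-kappaB, AP-1 and, through interferon, IRF and STAT transcription factors. (+)-JQ1 occupies the bromodomains of BET proteins, which read acetylated histones, and IL-10 signals through STAT3 to restrain inflammatory genes. Many mammalian promoters sit in a CpG island, a stretch rich in the CpG dinucleotide, and open as a short nucleosome-free gap, whereas stretches of several kb of open chromatin tend to hold many regulatory elements side by side.

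The start regions inside the broad peaks covered both ends of CpG content. The 150 bases upstream of a coding start are shown here for broad peaks at those ends, in mm9 coordinates and 5′ to 3′ on the strand of the gene, with CpG dinucleotides in capitals. The first set has many CpG. Atp1b3 (a subunit of the sodium-potassium pump) is among the most accessible broad peaks per kb, and Zbtb39 rose with (+)-JQ1.
Atp1b3 (chr9:96264767-96264916, minus strand): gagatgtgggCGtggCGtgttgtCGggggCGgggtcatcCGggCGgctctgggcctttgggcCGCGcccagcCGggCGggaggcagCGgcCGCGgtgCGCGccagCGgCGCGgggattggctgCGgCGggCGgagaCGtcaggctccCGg
Zbtb39 (chr10:127176444-127176593, plus strand): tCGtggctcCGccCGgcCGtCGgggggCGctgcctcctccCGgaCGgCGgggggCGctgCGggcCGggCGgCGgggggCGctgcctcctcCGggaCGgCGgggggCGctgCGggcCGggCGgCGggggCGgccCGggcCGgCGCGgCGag
The second set has few. Irg1, the enzyme that makes itaconate, had the largest rise with LPS, C9, a complement component, rose with IL-10, and Treml1, a receptor of the TREM family, fell with LPS.
Irg1 (chr14:103446044-103446193, plus strand): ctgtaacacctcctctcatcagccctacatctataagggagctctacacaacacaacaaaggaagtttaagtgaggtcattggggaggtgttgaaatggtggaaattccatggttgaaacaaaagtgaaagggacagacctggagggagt
C9 (chr15:6395177-6395326, plus strand): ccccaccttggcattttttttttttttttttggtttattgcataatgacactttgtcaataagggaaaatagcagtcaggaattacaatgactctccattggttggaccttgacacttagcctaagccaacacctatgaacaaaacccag
Treml1 (chr17:48499091-48499240, plus strand): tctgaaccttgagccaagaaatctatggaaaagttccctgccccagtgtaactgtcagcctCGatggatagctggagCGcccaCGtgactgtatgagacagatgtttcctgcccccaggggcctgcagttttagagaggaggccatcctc
These windows held 23 and 29 CpG in the first set and 0, 0 and 3 in the second. Over all 1415 coding starts inside broad peaks, the median was 5 CpG (interquartile range 2 to 11), against 10 (5 to 15) for 11430 starts inside narrow peaks. Windows with 2 or fewer CpG made up 29.1% of the broad and 14.0% of the narrow starts, and windows with 10 or more made up 30.7% and 53.0%.

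Letters that fit the binding sequences of the factors named above were searched on both strands of each peak: TGANTCA for AP-1, GGANTTTCC for NF-kappaB, AAANTGAAA for IRF, GAGGAAGT for PU.1 and TTCCNGGAA for STAT, with N any base. A match describes the sequence and is not evidence of binding. The following windows centre on matches, in capitals, in peaks that rise or fall most in the comparisons below, and each is written on the strand of the match. None of the stretches printed here or above overlaps an annotated exon of a protein-coding gene, and exons of other genes were not checked.
Irg1 NF-kappaB (chr14:103446118-103446178, minus strand): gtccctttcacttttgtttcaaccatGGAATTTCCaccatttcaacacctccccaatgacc
Fbxo39 IRF (chr11:72129022-72129082, minus strand): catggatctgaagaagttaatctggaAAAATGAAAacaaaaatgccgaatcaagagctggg
Olfr222 IRF (chr11:59386877-59386937, plus strand): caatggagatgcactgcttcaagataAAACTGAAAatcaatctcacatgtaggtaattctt
Il4ra STAT (chr7:132725099-132725159, plus strand): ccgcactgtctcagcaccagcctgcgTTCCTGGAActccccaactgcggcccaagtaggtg
Rasgef1b AP-1 (chr5:99662853-99662911, plus strand): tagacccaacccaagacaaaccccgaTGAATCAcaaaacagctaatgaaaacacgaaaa
Of all windows of the same length cut from promoter peaks, at 61 bases 0.204% held the NF-kappaB letters, 0.512% the IRF letters and 0.176% the STAT letters, and at 59 bases 1.5% the AP-1 letters. Windows from broad peaks held them at 0.185%, 0.472%, 0.165% and 1.48%. The broad peak near Rasgef1b held 5 separate AP-1 matches, none of which overlapped the IRF match in that peak. Summed over their length, broad peaks held 0.282 AP-1 matches per kb against 0.274 in narrow peaks, 0.0356 against 0.0393 for NF-kappaB, 0.0907 against 0.0981 for IRF, 0.0759 against 0.0890 for PU.1 and 0.0312 against 0.0340 for STAT.

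Libraries held 12020526 to 25908198 counts in peaks. Levels are CPM, the count in a peak scaled to the effective size of its library, and libraries were scaled with TMM, whose factors were 1.04 to 1.24 in the unstimulated libraries and 0.896 to 1.05 in the others, so that levels relative to unstimulated cells depend on the scaling more than those among LPS-treated cells. With TMM the median log2 fold change over all peaks was -0.032 for LPS, -0.085 for (+)-JQ1 and -0.049 for IL-10 against unstimulated cells, and with scaling by total counts it was -0.26, -0.37 and -0.26. Within LPS it was -0.0031 for (+)-JQ1 and -0.013 for IL-10 with TMM, and -0.012 and 0.052 with total counts. Promoter peaks of all 9 macrophage markers were found and 6 exceeded 5 CPM per kb. No promoter peak of 8 T cell, 6 B cell or 7 erythroid and mast cell markers did, and 1 marker each did among 8 neutrophil, 5 dendritic cell and 7 fibroblast genes. Lane 5 carried replicate 1 of each group and lane 6 replicate 3. Replicate 2 ran on lane 5 for cells without LPS and on lane 6 for cells with it, so that lane and LPS are partly confounded.

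Broad peaks had a median width of 5584 bp (interquartile range 4612 to 7352, maximum 34044) and covered 29.8% of the bases in promoter peaks. Their median level was 17.5 CPM, against 2.61 CPM for narrow peaks. Per kb the medians were 2.72 and 2.24 CPM, but the upper quartile was 4.00 CPM per kb in broad peaks and 16.5 in narrow ones. The highest value was 22.6 CPM per kb in broad and 115.5 in narrow peaks. With peak width, the median CPM per kb went from 1.81 at 500 to 1000 bp to 3.05 at 3000 to 4000 bp and 2.55 at 10000 bp or more.

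**Figure D1:**
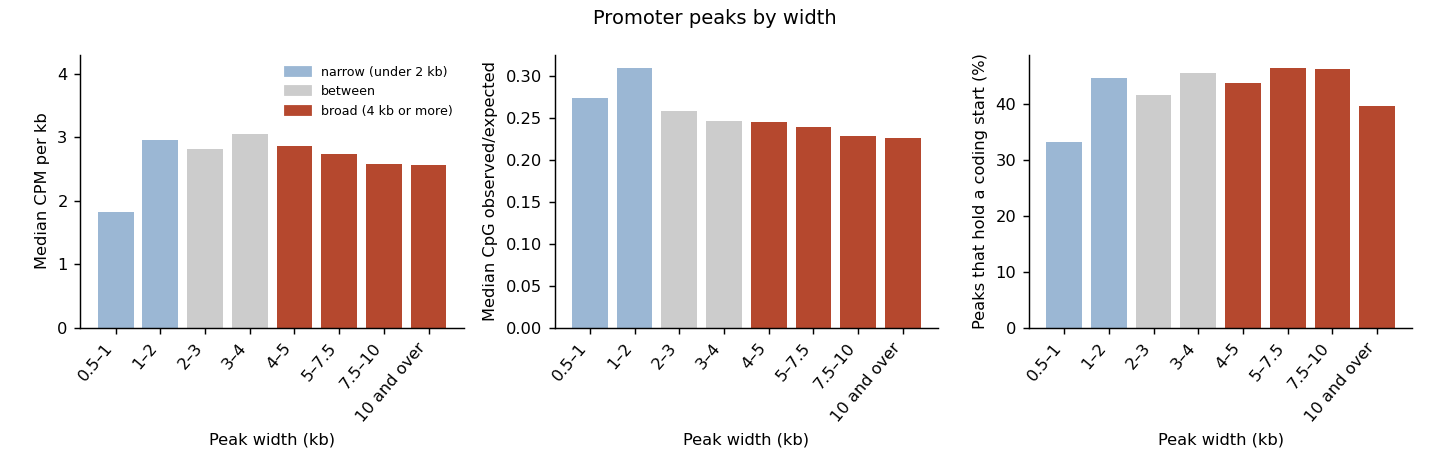
Promoter peaks in bands of width (kb, x axis), with bars for the median level in CPM per kb, for CpG content as the observed-to-expected ratio, and for the percent of peaks that hold a coding start. The bars show the level per kb lowest in the narrowest band (1.81) and 2.55 in the widest, and the CpG ratio falling from 0.310 at 1 to 2 kb to 0.226 in the widest.

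The ratio of observed to expected CpG had a median of 0.238 in broad peaks and 0.290 in narrow ones, with upper quartiles of 0.309 and 0.631, whereas the GC content was alike at 50.4% and 50.3%. A CpG-rich run of 500 bp or more was present in 889 broad peaks (30.0%) and 8418 narrow ones (30.8%). Coding starts lay inside 1324 broad peaks (44.6%) and 10600 narrow peaks (38.7%), and no annotated start used here lay within the promoter window of 693 broad peaks (23.4%) and 21.5% of narrow ones. Broad peaks lay mostly inside genes, with a median of 98.9% of their bases in gene bodies against 83.4%. The nearest other peak of any class, promoter or distal, was a median of 161 bp away, against 385 bp for narrow peaks. On the X chromosome, 15 of 679 promoter peaks (2.21%) were broad, whereas on the autosomes the share was between 5.67% on chromosome 13 and 10.6% on chromosome 15. These class differences are descriptions of regions and carry no test.

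The widest broad peak, 34044 bp nearest to Actr3, an actin-nucleating Arp2/3 subunit, had 66.5, 72.7 and 77.3 CPM in unstimulated and 85.5, 111 and 99.1 CPM in LPS libraries. The next were 33484 bp at 4933407C03Rik, 31841 bp at Tpcn2, an endolysosomal ion channel, 31693 bp over Nckap1l (a WAVE complex member of blood cells) and Pde1b, and 30167 bp at Itm2b. Of these 5, Tpcn2 was the one called in LPS against unstimulated cells, from 96.3, 92.0 and 96.8 CPM down to 46.1, 45.4 and 48.4 CPM, with no overlap and a log2 fold change of -1.03 ± 0.13 (SE; edgeR adjusted p = 6.1e-10). The highest levels per kb were at Rfx1 (a DNA-binding factor), Azin1 (antizyme inhibitor), Pabpc1 (the poly(A)-binding protein), Atp1b3 and Adrm1 (a proteasome ubiquitin receptor), all of which have general cell functions. At the width threshold, the members just inside were Faim3, Atf7ip and Parp12 at 4000 bp with 3.52, 12.7 and 11 CPM per kb, and the peaks just outside were Hcls1 and BC021614 at 3999 bp and Sec24b at 3995 bp with 1.31, 1.55 and 1.33 CPM per kb.

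LPS against unstimulated cells asked which broad peaks opened or closed with stimulation. A peak was called at an adjusted p under 0.05 and an absolute log2 fold change above 0.5. With LPS, 665 broad peaks were called higher (22.4%; 11.7% of all tested peaks) and 339 lower (11.4%; 10.2% of all). Among narrow peaks the shares were 12.7% and 5.74%. The median log2 fold change was 0.13 in broad and 0.12 in narrow peaks. Broad peaks also hold more counts, with a median of 17.5 against 2.61 CPM, whose part in the shares was not tested. The split depended on scaling: it was 11.2% higher and 23.8% lower with loess offsets, 13.1% and 22.2% with total counts, and 14.9% and 18.6% with the promoter table fitted alone. Over all tested peaks these settings gave 10.0% higher and 8.64% lower, 6.58% and 19.3%, and 7.09% and 12.3%.

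**Figure D2:**
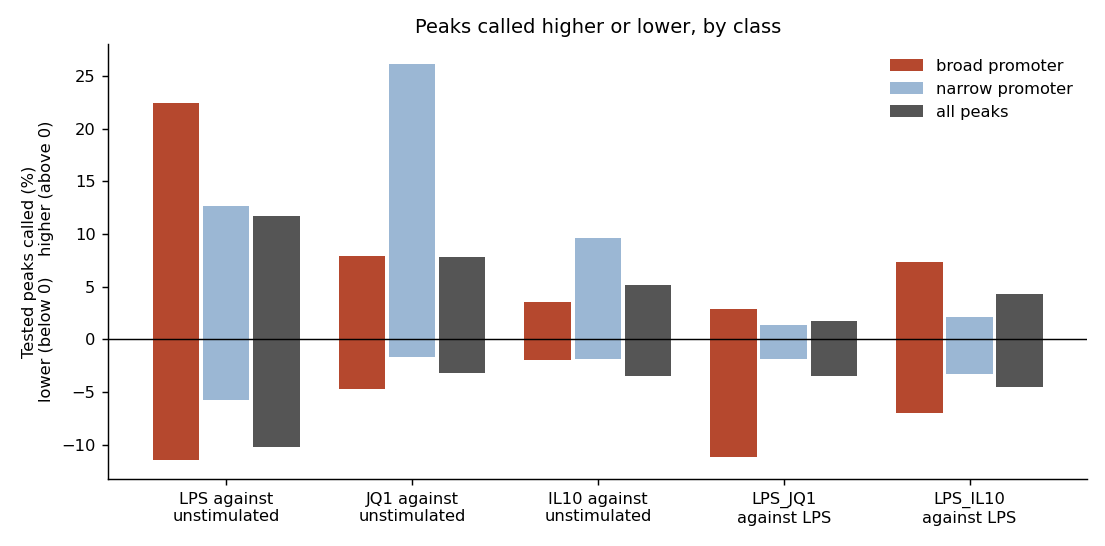
Percent of tested peaks called higher (above 0) or lower (below 0) in each comparison, for the broad, narrow and all-peak classes shown as bars of different colour. With LPS 22.4% of broad and 12.7% of narrow peaks were called higher, whereas with (+)-JQ1 alone it was 7.95% and 26.2%.

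The largest rise was at Irg1 (chr14:103445580-103450303), an enzyme of macrophage metabolism that makes itaconate. It had 8.57, 9.29 and 10.4 CPM in unstimulated libraries and 63.0, 63.4 and 64.7 CPM with LPS. All 3 LPS libraries lay several-fold above every unstimulated one, with a log2 fold change of 2.75 ± 0.15 (SE, 3 against 3 libraries; edgeR adjusted p = 1.3e-30). The NF-kappaB match printed above lies just upstream of the start in this peak. The peak at Fbxo39, which also covers part of the interferon-induced gene Xaf1, went from 8.10, 7.53 and 6.85 to 41.7, 42.0 and 42.6 CPM, a log2 fold change of 2.49 ± 0.15. The peak at Olfr222, an olfactory receptor gene, went from 10.3, 10.8 and 9.48 to 52.6, 53.2 and 49.2 CPM. The next largest rises were at Phrf1, in a peak that also overlaps Irf7, a regulator of type I interferon (2.27), at Kpna1, an importin (2.18), and at Gm15478 in the body of Atp8a1 (2.08), on the log2 scale.

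The largest fall was at 6330512M04Rik in a peak that overlaps Ctsd, the lysosomal protease cathepsin D. Its level went from 63.6, 66.2 and 87.0 CPM in unstimulated libraries to 16.2, 13.2 and 15.7 CPM with LPS, a log2 fold change of -2.26 ± 0.14 (SE; edgeR adjusted p = 1.95e-26). Cerk, the ceramide kinase, fell from 18.7, 16.4 and 19.5 to 4.73, 4.64 and 5.49 CPM. An adjacent broad peak named for a 7SK copy, over Gramd4 and Cerk, fell by 1.66 on the log2 scale. Falls of 1.75, 1.67 and 1.66 on that scale were found at Pld6 (in a peak within the Flcn gene), at Treml1 and near BC051665. In each of these 6 peaks the unstimulated and LPS libraries did not overlap.

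**Figure D3:**
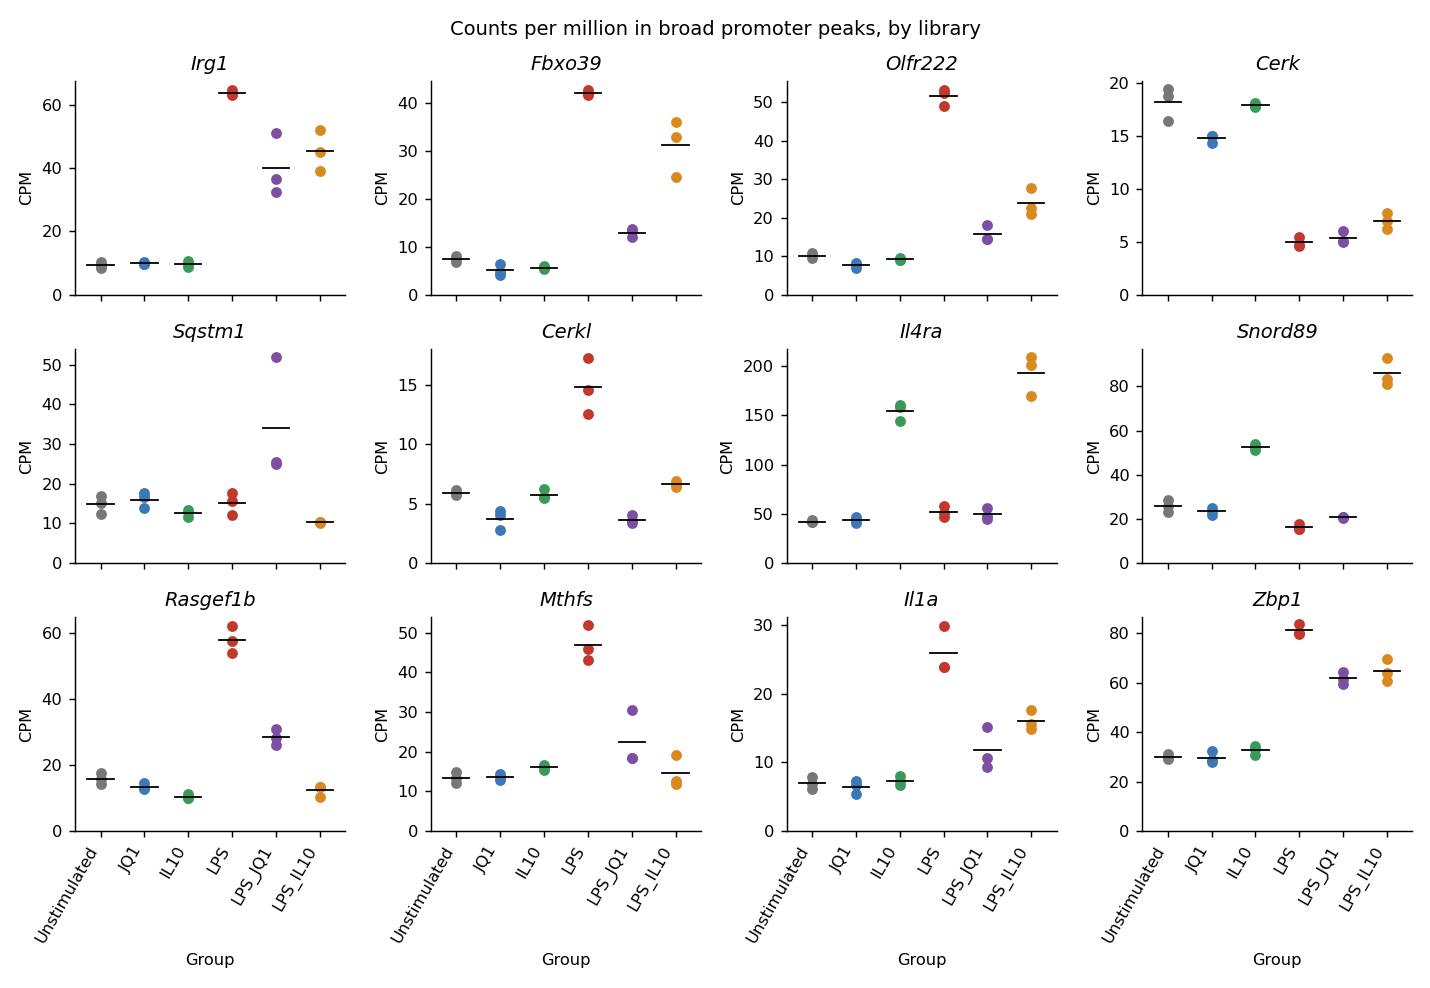
CPM in each library (points) of named broad promoter peaks across the 6 groups on the x axis, 1 panel a peak. Lines mark group means, and LPS_JQ1 and LPS_IL10 stand for LPS + (+)-JQ1 and LPS + IL-10. Irg1 lies between 8.57 and 10.4 CPM in unstimulated and between 63.0 and 64.7 CPM in LPS libraries.

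Genes of the response to LPS were described in lists that do not depend on width. Of 31 cytokine and chemokine genes with a promoter peak, 7 had a broad one, in 9 peaks, and 7 of these were called higher with LPS and 0 lower. Of all broad peaks 22.4% were called higher and 11.4% lower, and of all tested peaks 11.7% and 10.2%. Il1a, which encodes the alarmin interleukin-1 alpha, had 6.83, 7.91 and 6.19 CPM in unstimulated and 30.0, 23.9 and 23.9 CPM in LPS libraries, a log2 fold change of 1.89 ± 0.15 (edgeR adjusted p = 1.73e-19). Il12a, the p35 subunit of IL-12, changed by 1.40, both adjacent peaks of the IL-1 receptor antagonist gene Il1rn by 1.24 and 0.73, both peaks at Cxcl16 and its neighbour Zmynd15 by 1.08 and 0.75, and the monocyte chemokine gene Ccl2 by 0.75. Lif (0.45) and Csf3 (0.05) were not called.

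The counts in these further lists stand beside 22.4% of all broad peaks and 11.7% of all tested peaks called higher with LPS. Among 23 interferon-stimulated genes with a promoter peak, 4 had broad ones, in 6 peaks of which 5 rose. The nucleic acid sensor Zbp1 went from 29.2, 29.7 and 31.2 to 83.8, 79.7 and 80.2 CPM, a log2 fold change of 1.43 ± 0.13. The 3 adjacent peaks at Sp100, a nuclear body component, rose by 1.63, 1.34 and 0.73, and Oas2, a synthetase activated by double-stranded RNA, by 1.25, all on the log2 scale. Of NF-kappaB subunits and inhibitors, 4 of 12 genes had a broad peak, and Nfkbiz (1.05) and Tnip1 (1.00), both modulators of NF-kappaB, rose, whereas Relb (0.021) and Bcl3 (0.17) were not called. Of 8 broad peaks at 6 of 22 IRF, STAT and SOCS genes, Stat2 (1.06) and Irf1 (0.95) rose. Of 7 peaks at macrophage surface receptors, 4 rose: both at the receptor kinase gene Axl (1.12 and 0.51), Tnfrsf1b (0.82) and Csf1r (0.50). The microRNA loci Mir146 (1.07) and Mir29a (0.70) rose, and so did Hk1 (0.65) and Pfkp (0.55) of 5 glycolysis genes. None of 7 broad peaks at macrophage transcription factor genes was called with LPS.

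No broad promoter peak was found at 16 AP-1 and immediate early genes, 23 feedback phosphatase, mRNA decay and stress genes, 13 BET and P-TEFb genes or 43 histone genes that had a promoter peak. For comparison, 1533 of 14695 coding genes with a promoter peak (10.4%) had a broad one.

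(+)-JQ1 within LPS stimulation was tested as LPS + (+)-JQ1 against LPS, and it shares the LPS libraries with the preceding comparison. Here 331 broad peaks were called lower (11.2%; 3.49% of all tested peaks) and 86 higher (2.90%; 1.74% of all). Among narrow peaks 1.82% were lower and 1.32% higher, and the median log2 fold changes were -0.015 in broad and 0.053 in narrow peaks. The part of the higher counts of broad peaks in these shares was not tested. At any p, 19.46% of promoter peaks of 500 to 1000 bp had an absolute log2 fold change above 0.5 in this comparison. That share was 10.96% at 1000 to 2000 bp, 13.08% at 4000 to 5000 bp and 19.94% at 10000 bp or more. Without replicate 2 the shares of broad peaks called were 6.07% lower and 1.15% higher (1.55% and 0.498% of all).

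The largest fall was at Cerkl in a peak over Itga4, an integrin subunit. It had 12.5, 17.3 and 14.6 CPM with LPS and 3.53, 3.38 and 4.07 CPM with LPS + (+)-JQ1, a log2 fold change of -2.00 ± 0.17 (SE; edgeR adjusted p = 3.6e-17), against 5.82, 6.15 and 5.70 CPM in unstimulated libraries. Ptpro, a receptor phosphatase, had 8.5, 9.39 and 11.9 CPM with LPS and 1.77, 3.44 and 2.87 CPM with LPS + (+)-JQ1. At Olfr222 the level was 18.1, 14.5 and 14.4 CPM with LPS + (+)-JQ1 (-1.73), and at Fbxo39 it was 12.0, 13.3 and 13.7 CPM (-1.69), in each case below every LPS library. The same held for 741 of all broad peaks (25.0%), while 519 (17.5%) lay above every LPS library. The matching shares over all tested peaks were not computed, so these counts do not describe a trait of broad peaks. Further falls were at a U1 copy within Aoah, which encodes an enzyme that inactivates LPS (-1.59), and at Eif3c in a peak over Cln3 (-1.55). Irg1 had 51.2, 36.6 and 32.6 CPM, a log2 fold change of -0.68 ± 0.14 (edgeR adjusted p = 0.000206).

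The largest rise was at Ccdc21, from 13.5, 15.7 and 9.02 to 32.2, 39.4 and 24.3 CPM, a log2 fold change of 1.31 ± 0.18. Sqstm1, which encodes the autophagy receptor p62, went from 15.5, 17.6 and 12.0 to 51.8, 25.4 and 24.9 CPM (1.16), with replicate 1 far above the other 2 libraries of its group. Mars, a tRNA synthetase gene whose peak also covers the stress-response gene Ddit3, rose by 1.12, Lipa, the lysosomal acid lipase, by 1.11, Pitpna by 0.91 and Zfp740 in a peak within Itgb7 by 0.91 on the log2 scale.

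In the lists, 3 of 6 interferon-stimulated gene peaks fell with (+)-JQ1 under LPS: Oas2 (-1.42) and the 2 Sp100 peaks that hold no coding start (-1.02 and -0.92). Lower calls made up 11.2% of all broad peaks and 3.49% of all tested peaks. Of 9 cytokine peaks, Il1a (-1.17) and Il12a (-0.60) fell. Il1a had 15.2, 10.7 and 9.38 CPM with LPS + (+)-JQ1. Mir29a fell (-0.90), and so did 1 of the Axl peaks (-0.81), whereas the scavenger receptor gene Cd36 rose (0.51). None of the broad peaks at NF-kappaB, IRF, STAT or SOCS genes was called in this comparison.

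IL-10 within LPS stimulation, tested against the same LPS libraries, gave 218 broad peaks called higher (7.35%; 4.26% of all tested peaks) and 208 lower (7.01%; 4.51% of all). Narrow peaks were called higher in 2.08% and lower in 3.31%, with median log2 fold changes of 0.036 in broad and -0.091 in narrow peaks. Here too the part of the higher counts of broad peaks was not tested. At any p, 22.35% of promoter peaks of 500 to 1000 bp had an absolute log2 fold change above 0.5. That share was 12.6% at 1000 to 2000 bp, 12.8% at 4000 to 5000 bp and 16.5% at 10000 bp or more. Without replicate 2 the shares of broad peaks were 4.78% and 4.18% (2.27% and 2.32% of all).

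The largest rise was in a peak named for Snord89, a small nucleolar RNA, within D1Bwg0212e. It had 15.4, 17.8 and 15.4 CPM with LPS and 93.1, 83.5 and 81.2 CPM with LPS + IL-10, a log2 fold change of 2.41 ± 0.14 (SE; edgeR adjusted p = 5e-28). Rnf149, a ubiquitin ligase gene close by on chromosome 1, rose by 1.91. The peak at C9, which also covers part of the endocytic adaptor gene Dab2, went from 6.57, 7.09 and 5.55 to 30.1, 33.0 and 30.2 CPM (2.27). A peak of 11359 bp in Il4ra, which encodes the receptor chain for IL-4 and IL-13, went from 57.6, 51.1 and 46.2 to 209, 201 and 170.1 CPM (1.90), and it holds the STAT match printed above. Tgfbi, a matrix protein gene, rose by 1.69, and a peak of 26860 bp at Fam65c and the phosphatase gene Ptpn1 by 1.52.

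The largest fall with IL-10 under LPS was at Rasgef1b, a Ras exchange factor gene that LPS is known to induce. Its level was 17.5, 14.2 and 15.7 CPM in unstimulated libraries, 57.4, 62.0 and 53.9 CPM with LPS and 10.3, 13.4 and 13.2 CPM with LPS + IL-10, a log2 fold change of -2.24 ± 0.14 against LPS (SE; edgeR adjusted p = 1.25e-25). With IL-10 all 3 libraries lay below every unstimulated library. Il15, a cytokine that sustains NK and memory T cells, went from 17.9, 15.3 and 14.5 to 5.44, 4.11 and 4.55 CPM, and Mthfs from 43.0, 51.9 and 46.0 to 19.3, 11.9 and 12.5 CPM. Dnase1l3, a secreted DNase, fell by 1.60, Fam136b-ps by 1.53 and Ddhd1 by 1.44 on the log2 scale.

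Il1a (-0.69) and Il12a (-0.72) were the 2 of 9 cytokine peaks called lower with IL-10 under LPS. Lower calls made up 7.01% of all broad peaks and 4.51% of all tested peaks. Irf1 fell (-0.64), as did both Axl peaks (-0.81 and -0.73) and Mir29a (-0.84). Higher calls were Il10rb, a chain of the IL-10 receptor itself (0.96), in a peak within Ifnar2, and Bcl3, a nuclear IkappaB protein (0.58). Il10rb had 10.8, 9.99 and 10.8 CPM with LPS and 22.8, 17.6 and 20.7 CPM with LPS + IL-10. None of the 6 interferon-stimulated gene peaks was called.

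(+)-JQ1 without LPS gave 236 broad peaks called higher (7.95%; 7.85% of all tested peaks) and 141 lower (4.75%; 3.15% of all), while 26.2% of narrow peaks were higher and 1.71% lower. The share of broad peaks called higher was thus close to the background. The split depended strongly on the scaling. Broad peaks called higher were 0.0674% with loess offsets, 0.505% with total counts and 0.438% with the promoter table alone, with 37.8%, 28.0% and 29.4% called lower. Over all tested peaks these settings gave 1.34%, 1.97% and 6.17% higher and 2.22%, 14.1% and 15.3% lower. Without replicate 2 it was 1.11% higher and 1.69% lower (2.24% and 0.567% of all), and without replicate 3 it was 12.6% higher (9.74% of all).

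Falls were at peaks nearest to Fam162b (-1.23) and BC051665 (-1.20), at the adaptor gene Fyb (-1.19), at Ahnak2 and Pld4 (-1.11), at Fam20c, a secretory pathway kinase (-1.10), and at Ly86, whose product partners the LPS-modulating receptor RP105 (-1.03), on the log2 scale. At Fyb, for example, the level was 14.5, 15.4 and 14.6 CPM in unstimulated and 6.44, 6.37 and 6.64 CPM in (+)-JQ1 libraries, a log2 fold change of -1.19 ± 0.15 (edgeR adjusted p = 2.97e-08). The largest rises were smaller: Gm13475 (0.92), Cyfip1 (0.91), Ms4a4c (0.89), Zbtb39 (0.84), 5031425E22Rik (0.84) and Ctsb, the lysosomal protease cathepsin B (0.83). At Ctsb it went from 17.7, 16.8 and 19.7 to 30.1, 32.5 and 33.9 CPM. Higher calls made up 7.95% of all broad peaks and 7.85% of all tested peaks. Of the 8 IRF, STAT and SOCS peaks, 5 were called higher (Stat2, both Stat5b peaks, Irf1 and Socs6, from 0.52 to 0.64), and with loess offsets Stat2, 1 Stat5b peak, Irf1 and Socs6 changed sign. Nfkbiz, Ccl2 and Tnfrsf1b did too.

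IL-10 without LPS gave 106 broad peaks called higher (3.57%; 5.16% of all tested peaks) and 58 lower (1.95%; 3.5% of all), with 9.64% and 1.91% of narrow peaks. Both shares were below the background. The split was 0.438% higher and 15.2% lower with loess offsets, 0.943% and 9.40% with total counts and 1.04% and 7.68% with the promoter table alone. Over all tested peaks these settings gave 1.45% and 1.57%, 1.27% and 8.58%, and 1.5% and 6.19%. Without replicate 2 it was 0.910% and 0.371% (0.799% and 0.414% of all), without replicate 3 it was 8.76% higher (8.56% of all) and without replicate 1 it was 1.08% lower (0.621% of all).

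The Il4ra peak had the largest rise here as well, from 41.5, 41.1 and 43.3 CPM in unstimulated to 158, 144 and 160.2 CPM in IL-10 libraries, a log2 fold change of 1.88 ± 0.14 (SE; edgeR adjusted p = 2.17e-20). Fads3, a fatty acid desaturase family gene, went from 28.0, 21.3 and 29.0 to 68.5, 62.5 and 68.3 CPM. Further rises were at C9 (1.15), Xirp1 (1.15) and Snord89 (1.03), and Bcl3 rose by 0.93. Falls were at Cox18, a mitochondrial assembly factor gene (-1.11), at RP23-324B17.1 in the Ugt1a cluster (-0.89), 2310006M14Rik (-0.80), Fbxw17 (-0.78), Apbb2 (-0.77) and 2010106G01Rik (-0.75).

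Whether a treatment acted differently with and without LPS was tested as an interaction, the log2 fold change of the treatment with LPS minus that without. For (+)-JQ1, 75 broad peaks had a positive interaction (2.53%; 0.649% of all tested peaks) and 133 a negative one (4.48%; 3.19% of all). For IL-10 it was 132 (4.45%; 2.01% of all) and 225 (7.58%; 5.9% of all). Narrow peaks had 0.384% positive and 13.2% negative interactions for (+)-JQ1, and 0.925% and 19.3% for IL-10. In either direction, 7.01% of broad, 13.6% of narrow and 3.84% of all peaks were called for (+)-JQ1, and 12.0%, 20.3% and 7.91% for IL-10. With loess offsets narrow peaks went from the highest share to the lowest, with 18.2% of broad, 0.519% of narrow and 1.28% of all peaks for (+)-JQ1, and 28.5%, 2.49% and 4.07% for IL-10. Without replicate 2 the shares were 0.169% of broad and 0.0597% of all peaks for (+)-JQ1, and 1.42% and 0.895% for IL-10. Without replicate 1 they were 2.80% and 0.543% for (+)-JQ1, and 6.00% and 3.65% for IL-10. At Fam20c, (+)-JQ1 libraries without LPS had 14.5, 18.4 and 18.6 CPM against 35.7, 32.1 and 42.6 CPM unstimulated, and with LPS 29.1, 23.9 and 24.7 against 21.5, 23.9 and 21.4 CPM. At Ly86, IL-10 libraries had 22.2, 19.3 and 25.8 CPM without LPS, above every unstimulated library, and 6.45, 8.40 and 9.51 CPM with LPS, below every LPS library.

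Peaks called in different comparisons differed in sequence content. Of the 236 called higher with (+)-JQ1 alone, 73.7% held a coding start and 61.4% a CpG-rich run of 500 bp or more, with a median of 7.48 CPM per kb, against 44.6%, 30.0% and 2.72 CPM per kb in all broad peaks. A CpG-rich run was present in 15.6% of peaks called lower with LPS and in 14.2% of those called higher with IL-10 under LPS. IRF matches numbered 0.907 per 10 kb over all broad peaks. In the 10 called sets they ranged from 0.647 in peaks called lower with LPS to 1.46 in those called higher with (+)-JQ1 alone, with 1.24 in those called higher with LPS and 1.19 in those called lower with IL-10 under LPS. In the same order, the median GC content of these sets was 51.7%, 47.8%, 48% and 47.4%, against 50.4% in all broad peaks. The IRF letters are rich in A and T, and the part of GC content in their number was not tested. These are descriptions of called sets, without a test. Called in none of the 5 pairwise comparisons were 1521 broad peaks (51.3%). The matching share over all tested peaks was not computed, and the calls against unstimulated cells depended on the scaling.

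**Figure D4:**
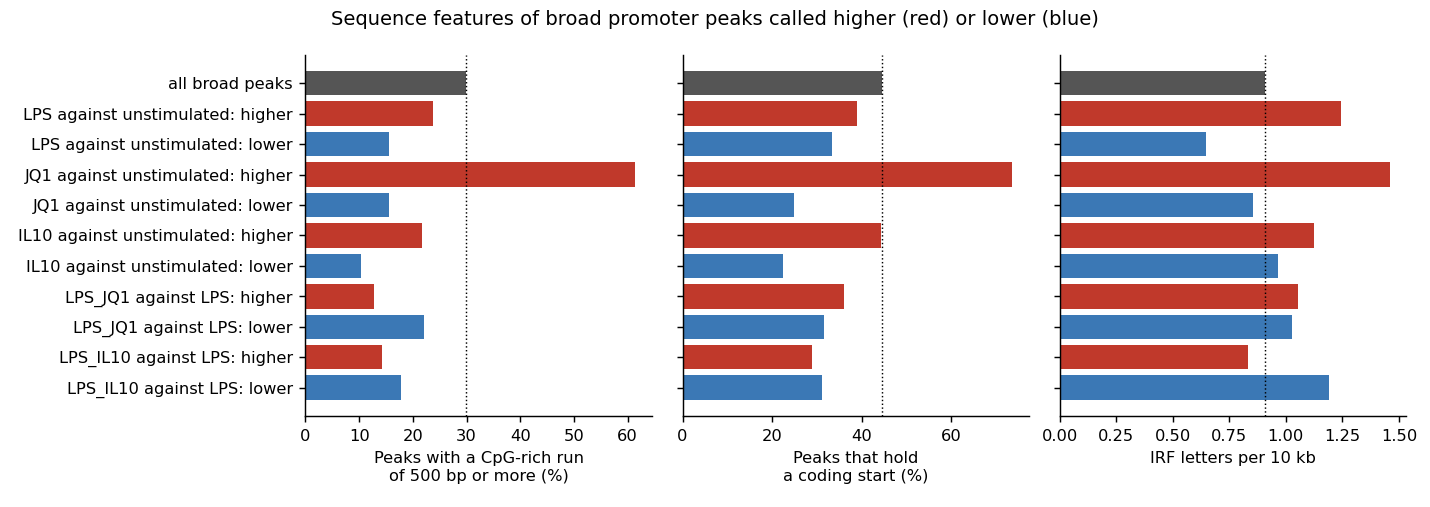
Sequence features of the sets of broad peaks called higher (red) or lower (blue) in each comparison, 1 bar a set, with the value over all broad peaks as a dotted line. The set called higher with (+)-JQ1 alone has 61.4% holding a CpG-rich run, against 30.0% over all broad peaks. It holds 236 peaks with TMM, but 15 with total counts and 2 with loess offsets.

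To compare the classes without scaling between libraries, the mean log2 CPM over broad peaks minus that over narrow peaks was taken in each library. It was 2.06 ± 0.010 (SD, n = 3) in unstimulated, 1.93 ± 0.017 in (+)-JQ1, 2.05 ± 0.012 in IL-10, 2.13 ± 0.014 in LPS, 2.04 ± 0.017 in LPS + (+)-JQ1 and 2.21 ± 0.032 in LPS + IL-10 libraries. LPS raised the difference between the classes in 9 of 9 same-number, same-treatment pairs, by a mean of 0.11 (two-sided exact sign-flip permutation test p = 0.0039, the smallest possible, adjusted over 3 tests 0.012). (+)-JQ1 lowered it in 6 of 6 pairs, by a mean of -0.11 (exact p = 0.031, the smallest possible, adjusted 0.047), and IL-10 raised it in 4 of 6, by 0.034 (exact p = 0.219). The cells came from 3 mice, and these tests rest on the pairing by number. Within a test no library is used again, but each replicate number enters several pairs. The sign-flip test treats those pairs as independent, so its p-values do not measure the spread between 3 mice. With the 3 pairs of a single treatment or stimulation, that test allows no exact p under 0.25. In single comparisons of 3 against 3 libraries the groups did not overlap except for IL-10 against unstimulated, with exact p = 0.1, the smallest possible, and 0.125 after adjustment.

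This difference depended on how the classes were averaged. With the log2 ratio of summed counts the mean over 9 LPS pairs was 0.13 (exact p = 0.164), and with narrow peaks of at least 5 CPM it was 0.10 (exact p = 0.320). LPS against unstimulated alone changed sign, to -0.16 with summed counts, -0.23 with narrow peaks of at least 5 CPM and -0.10 with the peaks that hold a coding start (exact p = 0.3 for each). With medians over peaks the mean over 6 (+)-JQ1 pairs was -0.032 (exact p = 0.438). Broad peaks held 15.7% ± 1.28 (SD, n = 3) of promoter counts in unstimulated, 12.0% ± 0.58 in (+)-JQ1, 13.8% ± 0.14 in IL-10, 14.5% ± 0.48 in LPS, 13.6% ± 0.54 in LPS + (+)-JQ1 and 16.1% ± 0.73 in LPS + IL-10 libraries. In the same order of groups, the mean log2 ratio of distal to promoter counts was 0.41, 0.031, 0.20, 0.24, 0.19 and 0.40. Among unstimulated libraries, replicate 1 had a share of 17.0% at a ratio of 0.54, and replicate 3 had 14.4% at 0.26. The part of this ratio in the shares was not tested. The level of narrow peaks varied more than that of broad ones, from 8.73 ± 1.54 CPM per kb unstimulated to 13.2 ± 1.08 with (+)-JQ1, against 3.01 ± 0.19 and 3.22 ± 0.059 for broad peaks.

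**Figure D5:**
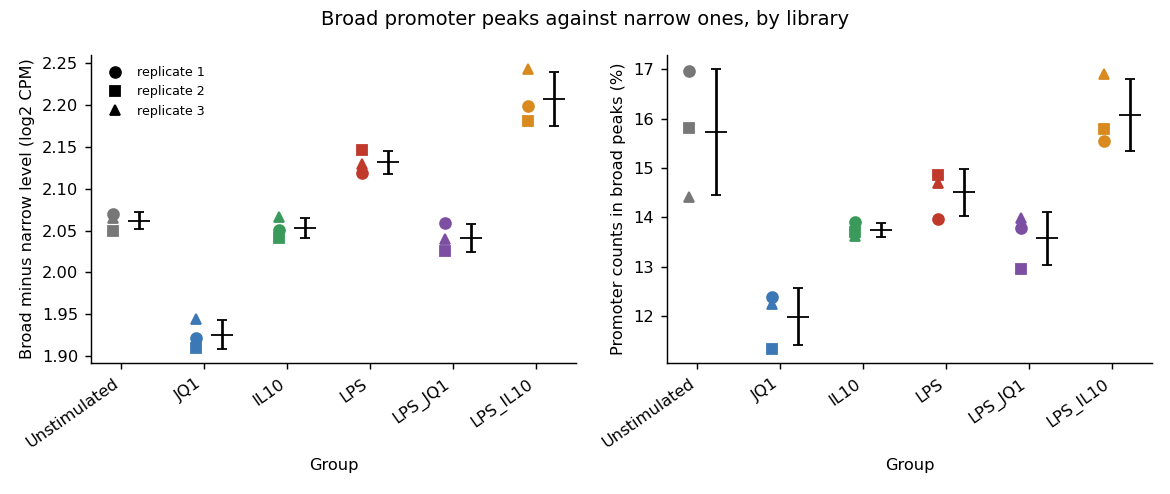
Broad promoter peaks against narrow ones in each library (points, with a marker shape for each replicate) across the 6 groups on the x axis, with the mean log2 CPM of broad minus narrow peaks in 1 panel and the share of promoter counts in broad peaks in the other. The LPS + IL-10 libraries lie highest in the first panel, at 2.21 on average, and the (+)-JQ1 libraries lowest, at 1.93.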

How the data were processed

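ATAC-seq libraries of 6 groups with 3 replicates each were grouped by their labels. The authors aligned uniquely mapping reads to mm9 with bowtie2 in PEPATAC v0.9.0, called peaks per library with MACS2, took their union and deposited raw counts per peak, with the promoter class set by ChIPSeeker. The counting tool and any shift for the transposase are not given in the sources used here. The union table has 6 further columns that match no sample and were not used. Whether a start coordinate counts from 0 or 1 is not given, and coordinates are printed as deposited.

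Counts of all peaks and 18 libraries were fitted with edgeR 4.0.16 in R 4.3.3 (filterByExpr by group, TMM, quasi-likelihood test without a block), with Benjamini-Hochberg adjustment over 194230 tested peaks. The standard error (SE) is the absolute log2 fold change divided by the square root of F. CPM uses TMM-scaled totals, and mean log2 levels a prior count of 2. The p-values measure the spread between libraries of 3 mice. Libraries were paired by replicate number, since the series describes its samples as biologically matched, but no label ties a number to a mouse, and deviations from group means correlated at a mean r of 0.022 over broad peaks in 45 same-numbered pairs and -0.011 in 90 others. Starts, exons and sequence came from the mm9 genome and its GENCODE annotation. A CpG-rich run has windows of 200 bp with over 50% GC and an observed-to-expected CpG ratio over 0.6.

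Peaks were named by coding genes whose start lies inside or in the promoter window. Failing that, the name came from a noncoding gene that starts inside, as for 7SK. Next came other transcripts in the promoter window, as for Cerkl, Cox18, Cyfip1 and Ddhd1, and last the nearest start. A name does not link a peak to that gene. Named were the 5 widest, the 5 highest per kb, the 3 on each side of the width threshold, for each pairwise comparison the 6 largest rises and falls with an adjusted p under 0.05, at least 50 mean normalized counts and 1 direction in all 3 pairs, the 3 largest interactions in each direction, and the broad peaks of the gene lists. A few of the items so chosen are not reported here. The members and lists were chosen with earlier results of these data known. Alternatives were DESeq2 1.42.0, DESeq2's size factors, total counts, loess offsets, other filters, a replicate block, a lane term, the promoter table alone, an FDR of 0.01, other width limits and each replicate left out. The fits were tested on simulated data with 200 changed broad peaks, at an adjusted p under 0.05. There edgeR recovered 76 of them with 4 false calls, and DESeq2 96 with 26, so both missed most of these changes. Tests over libraries used Python 3.11.15 with scipy 1.17.1. Intervals for counting error were not computed, and reads outside peaks were not analysed here.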

Additional observations from a re-analysis of the deposited data

Results flagged for a closer look

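In 12 broad peaks the effect of a treatment differed with LPS by the interaction test of edgeR (adjusted p under 0.05), these being the 3 largest in each direction for each treatment. Groups held 3 libraries, so that single libraries were not tested as outliers. Values are the log2 fold change of the treatment with LPS minus that without.

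For (+)-JQ1 the interaction was -1.52 at the Adam30 peak that holds its start, -1.45 at a second peak nearest to Adam30 within Notch2, and -1.35 at Cerkl. The first had 13.6, 17.5 and 15.9 CPM in unstimulated, 15.9, 16.7 and 16.4 CPM in (+)-JQ1, 64.4, 52.8 and 46.3 CPM in LPS and 26.2, 17.5 and 16.2 CPM in LPS + (+)-JQ1 libraries. It was 1.32 at Fam20c, 1.25 at Vav1, a signalling protein of blood cells, and 1.19 at a U6 copy within Hmgxb3.

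For IL-10 it was -1.95 at Mthfs, -1.92 at Ly86 and -1.62 at Rasgef1b, and 1.79 at Mrps10, 1.64 at Pkm2, the gene of a pyruvate kinase, and 1.38 at Snord89. At Mrps10 the level was 9.03, 9.89 and 7.62 CPM in unstimulated, 5.16, 7.68 and 5.31 CPM in IL-10, 4.00, 4.29 and 3.58 CPM in LPS and 9.91, 9.39 and 8.96 CPM in LPS + IL-10 libraries. The 12 interactions passed the threshold in the same direction under the 7 settings other than leaving out a replicate.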

How the results depend on the processing

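The percent of broad peaks called moved by over 1.5 times under the following settings. Scaled by total counts, the percent called became 13.1 for LPS against unstimulated (higher), 22.2 for LPS against unstimulated (lower), 0.505 for (+)-JQ1 against unstimulated (higher), 28.0 for (+)-JQ1 against unstimulated (lower), 0.943 for IL-10 against unstimulated (higher), 9.40 for IL-10 against unstimulated (lower), 16.0 for interaction of LPS with (+)-JQ1 and 23.6 for interaction of LPS with IL-10. With loess offsets, the percent called became 11.2 for LPS against unstimulated (higher), 23.8 for LPS against unstimulated (lower), 0.0674 for (+)-JQ1 against unstimulated (higher), 37.8 for (+)-JQ1 against unstimulated (lower), 0.438 for IL-10 against unstimulated (higher), 15.2 for IL-10 against unstimulated (lower), 18.2 for interaction of LPS with (+)-JQ1 and 28.5 for interaction of LPS with IL-10. With the promoter table fitted alone, the percent called became 14.9 for LPS against unstimulated (higher), 18.6 for LPS against unstimulated (lower), 0.438 for (+)-JQ1 against unstimulated (higher), 29.4 for (+)-JQ1 against unstimulated (lower), 1.04 for IL-10 against unstimulated (higher), 7.68 for IL-10 against unstimulated (lower), 19.1 for interaction of LPS with (+)-JQ1 and 24.8 for interaction of LPS with IL-10. With a filter of at least 10 counts in every library, the percent called became 3.54 for (+)-JQ1 against unstimulated (higher), 10.8 for (+)-JQ1 against unstimulated (lower), 1.35 for IL-10 against unstimulated (higher), 4.41 for IL-10 against unstimulated (lower) and 11.6 for interaction of LPS with (+)-JQ1. For peaks of 5000 bp or more, the percent called became 5.09 for (+)-JQ1 against unstimulated (higher). At an FDR under 0.01, the percent called became 1.01 for IL-10 against unstimulated (lower), 1.92 for interaction of LPS with (+)-JQ1 and 5.42 for interaction of LPS with IL-10. With DESeq2, the percent called became 13.8 for interaction of LPS with (+)-JQ1. Leaving out 1 replicate number in every group gave 1.11 to 12.6 for (+)-JQ1 against unstimulated (higher), 1.69 to 5.83 for (+)-JQ1 against unstimulated (lower), 0.910 to 8.76 for IL-10 against unstimulated (higher), 0.371 to 2.02 for IL-10 against unstimulated (lower), 1.15 to 2.96 for LPS + (+)-JQ1 against LPS (higher), 6.07 to 11.3 for LPS + (+)-JQ1 against LPS (lower), 4.78 to 7.28 for LPS + IL-10 against LPS (higher), 4.18 to 7.51 for LPS + IL-10 against LPS (lower), 0.169 to 9.23 for interaction of LPS with (+)-JQ1 and 1.42 to 11.3 for interaction of LPS with IL-10. In the comparisons within LPS-treated cells, scaling, filter, block and lane left the percent called within 1.5 times of the values reported, and fewer libraries were tested when a replicate was left out. The replicate block left every percent called within 1.5 times (LPS + (+)-JQ1 against LPS, lower: 11.3%), and with 3 same-numbered pairs the broad minus narrow level gave p = 0.25, the smallest possible, for each pairwise comparison other than IL-10 against unstimulated (exact p = 0.5).

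The difference in the broad minus narrow level changed sign or its side of the threshold as follows. With the log2 ratio of summed counts, it was -0.16 for LPS against unstimulated (exact p = 0.3), 0.13 for LPS over all treatments (exact p = 0.164) and -0.026 for IL-10 with and without LPS (exact p = 0.875). With a narrow class of at least 5 CPM, it was -0.23 for LPS against unstimulated (exact p = 0.3), 0.10 for LPS over all treatments (exact p = 0.320) and -0.086 for IL-10 with and without LPS (exact p = 0.562). With the broad and narrow peaks that hold a coding start, it was -0.10 for LPS against unstimulated (exact p = 0.3), 0.12 for LPS over all treatments (exact p = 0.105), -0.23 for (+)-JQ1 with and without LPS (exact p = 0.0625) and -0.0037 for IL-10 with and without LPS (exact p = 1). With medians over peaks, it was 0.037 for (+)-JQ1 against unstimulated (exact p = 0.6), 0.13 for IL-10 against unstimulated (exact p = 0.1), -0.018 for LPS + IL-10 against LPS (exact p = 0.5) and -0.032 for (+)-JQ1 with and without LPS (exact p = 0.438). With broad peaks of 3000 bp or more, it was 0.0088 for IL-10 against unstimulated (exact p = 0.4) and 0.038 for IL-10 with and without LPS (exact p = 0.0312). The choice of peaks that hold a coding start was made after seeing the data. Without 1 replicate, for (+)-JQ1 with and without LPS it ranged from -0.12 to -0.10, each with exact p = 0.125, the smallest that 4 pairs allow. For the share of promoter counts, the broad class of 3000 bp or more held 22.6% in Unstimulated, 18% in (+)-JQ1, 20.2% in IL-10, 21.1% in LPS, 20.1% in LPS + (+)-JQ1 and 23.2% in LPS + IL-10, and that of 5000 bp or more 11.4% in Unstimulated, 8.40% in (+)-JQ1, 9.83% in IL-10, 10.4% in LPS, 9.63% in LPS + (+)-JQ1 and 11.6% in LPS + IL-10.

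Of 125 named pairwise fold changes, over 7 settings other than leaving out a replicate, 844 values stayed past the threshold in the same direction, 24 were no longer past it and 7 changed sign, with loess offsets in (+)-JQ1 against unstimulated: Stat2 (-0.068), Stat5b (-0.072), Irf1 (-0.30), Ccl2 (-0.12), Nfkbiz (-0.12), Socs6 (-0.048) and Tnfrsf1b (-0.066). With a replicate left out, 42 of these values were no longer past the threshold, and the 12 named interactions lost 4 and kept 32. With 3 libraries a group, no permutation test of 2 groups could pass 0.05.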

Other observations

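Housekeeping and developmental genes were also among the broad peaks. Of 70 ribosomal protein genes with a promoter peak, 12 had a broad one (17.1%), against 10.4% of coding genes, and with LPS 1 of these 12 peaks was called higher and 1 lower by edgeR (11.7% and 10.2% of all tested peaks), with 0 called in either direction by (+)-JQ1 or IL-10, alone or with LPS. Of 35 Hox genes with a promoter peak, which pattern the body axis, 10 had a broad one (28.6%), in 9 peaks. None of these was called with LPS, 2 were lower with (+)-JQ1 alone (3.15% of all tested peaks) and 2 were lower with (+)-JQ1 under LPS (3.49% of all). Of 35 Hox genes, 4 had a promoter peak above 5 CPM per kb, against 64 of 70 ribosomal protein genes.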
